A study of Mus musculus with 2 samples.

Results

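Among cells of the tail end of the mouse embryo, 620 of 19550 kept barcodes carried transcripts of both the caudal epiblast and the presomitic mesoderm. They were chosen by 4 genes: at least 2 unique molecular identifiers (UMIs, counted RNA molecules) of Nkx1-2 and Hes3 together, and at least 2 of Tbx6 and Msgn1 together. Nkx1-2 and Hes3 are transcription factor genes known from the caudal epiblast, and Tbx6 and Msgn1 are transcription factor genes required for presomitic mesoderm. Replicate 1 gave 486 such barcodes and replicate 2 gave 134. The 2 libraries were made with a droplet-based 5′ kit from pooled caudal tissue of wild-type C57BL/6J embryos at embryonic day 8.5, with no treatment and no transgene named in the labels. The labels do not say whether the pools were separate. The p-values therefore measure only how differences between classes varied across these 2 libraries, a spread that may be technical. The comparison classes came from the same libraries. The caudal epiblast class had the first pair at 2 UMIs or more and none of the second (2596 and 1312 barcodes in replicates 1 and 2), and the presomitic class had the second pair at 2 UMIs or more and none of the first (1453 and 1137 barcodes). The 4 gate genes are given as descriptions and were left out of every count of calls.

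The caudal epiblast is the posterior layer of the embryo that keeps supplying the trunk with new cells while the body axis lengthens. Some of its cells, the neuromesodermal progenitors, can give rise to spinal cord and to paraxial mesoderm. Cells that take the mesodermal route leave the epithelium through the primitive streak region, switch on T, Msgn1 and Tbx6, and become presomitic mesoderm, which later segments into somites. Wnt and FGF signals promote this route, and the enzyme Cyp26a1 keeps retinoic acid low at the tail end.

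Within the selected barcodes, the 4 gate genes were spread unevenly. All 4 were detected in 31.1% of them in replicate 1 and in 23.1% in replicate 2. Nkx1-2 without Hes3 was found in 226 of 486 and 67 of 134, and Tbx6 without Msgn1 in 30.5% and 35.1%. The summed level of Nkx1-2 was 133 CPM (UMIs per 1000000 UMIs of the class) in replicate 1 and 126 CPM in replicate 2, against 192 and 176 CPM in the caudal epiblast class. Msgn1 stood at 118 and 128 CPM, against 307 and 338 CPM in the presomitic class. Many barcodes lay at the edge of the gate, since exactly 2 UMIs of the epiblast pair were counted in 29.0% and 35.8% of them, and exactly 2 of the presomitic pair in 28.0% and 30.6%. At least 5 UMIs of both pairs were counted in 76 barcodes of replicate 1 (15.6%) and 18 of replicate 2 (13.4%).

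**Figure D1:**
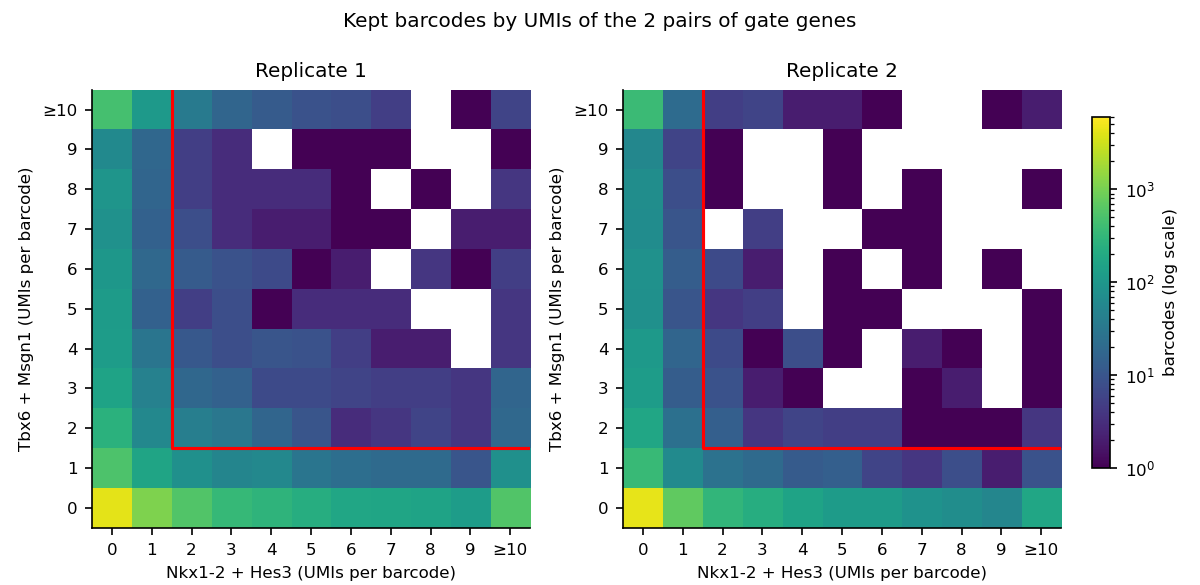
Kept barcodes of each library by their UMIs of Nkx1-2 and Hes3 (horizontal) and of Tbx6 and Msgn1 (vertical), with 10 or more pooled; colour is the number of barcodes on a log scale and white is none. The red line bounds the 486 and 134 barcodes with at least 2 UMIs of each pair.

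The share of double-positive barcodes was higher in replicate 1 than in replicate 2. They made up 15.8% of all double-positive and caudal epiblast barcodes in replicate 1 (95% exact Clopper-Pearson interval 14.5 to 17.1%) and 9.27% in replicate 2 (7.82 to 10.9%). These intervals, like every interval here, cover counting error only. The selected barcodes were deeper than either comparison class, with medians of 23701 and 19078.5 UMIs, against 20202 and 15880 in the caudal epiblast class and 14762 and 13487 in the presomitic class. When every barcode was thinned to 5000 UMIs before the gate, 43 of 10027 barcodes (0.429%) and 12 of 7669 (0.156%) remained double-positive, with 1201 and 653 shallower barcodes left out. The doublet caller Scrublet marked 32.1% and 17.2% of the selected barcodes, 9.51% and 5.56% of the caudal epiblast class and 10.7% and 3.61% of the presomitic class. Of the 22432 and 13488 barcodes scored, it marked 6.69% and 1.95%. At 0.8% per 1000 barcodes, a rate computed on all 30449 and 18245 barcodes of the libraries, 24.4% and 14.6% would be doublets. The highest Scrublet scores up to that rate, a cut added after seeing the data, took in 58.0% and 46.3% of the selected barcodes. They took in 28.0% and 17.4% of the caudal epiblast class and 29.5% and 21.7% of the presomitic class. That cut left 204 and 72 double-positive barcodes. Without the marked barcodes, 330 and 111 double-positive barcodes remained, 12.3% and 8.22% of the double-positive and caudal epiblast barcodes. The part of unmarked doublets in these shares was not tested.

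Free RNA in droplets can place UMIs in cells that do not make them, so the shares were set beside endothelial barcodes, which should lack both pairs. The presomitic pair reached 2 UMIs in 14.1% of the barcodes with the epiblast pair in replicate 1 and in 8.66% in replicate 2, at median depths of 20930 and 16042.5 UMIs. The background depended on how endothelial barcodes were picked. A first gate, at least 2 UMIs of Cdh5 and Pecam1, gave presomitic shares of 46 of 440 barcodes in replicate 1 and 52 of 462 (11.3%) in replicate 2 (medians of 24247.5 and 16412 UMIs). By that measure, the share in replicate 2 was not above background. Pecam1 stood at 15.4 CPM in the selected barcodes of replicate 2, 17.3 CPM in its caudal epiblast class and 17.4 CPM in its presomitic class. A second gate, chosen after these values were seen, asked for at least 5 UMIs of Cdh5, Tie1, Esam and Cldn5 and gave 8.11% and 2.75% (medians of 23884 and 15036 UMIs). Without Scrublet-marked barcodes, the presomitic pair reached 2 UMIs in 330 of 2990 and 111 of 1443 (7.69%) barcodes with the epiblast pair, against 6.02% and 10.6% by the first gate and 2.82% and 1.84% by the second. The epiblast pair reached 2 UMIs in 12.5% and 12.6% of endothelial barcodes by the first gate and in 11.3% and 3.78% by the second. Of all kept barcodes, 30.7% and 18.6% reached it. The part of background in the caudal epiblast class was not tested. Both pairs together reached the gate in 2.73% and 0.866% of endothelial barcodes by the first gate. By the second they did so in 1.72% of replicate 1 and in 0 of 291 barcodes of replicate 2, where a count of 0 allows a share of up to 1.03% (3 counts of 291), or 1.26% by the exact interval.

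UMIs of each class were added up within each library, and these sums (n = 2 libraries) were compared with edgeR's quasi-likelihood test, library as a block and Benjamini-Hochberg adjustment over 13894 genes. The 4 gate genes were part of the adjustment and left out of the 13890 genes counted. Adjusted without them, an alternative added after seeing the data, 322 genes passed against the caudal epiblast class, 738 against the presomitic class and the same 12 in both. Log2 differences below come from this fit and are followed by their standard errors. Against the caudal epiblast class, 197 genes were higher in the double-positive barcodes (1.42% of those tested) and 127 were lower (0.914%), 2.33% in either direction. Against the presomitic class, 419 were higher (3.02%) and 326 lower (2.35%), 5.36% in either direction. The gate selected cells on 4 genes, so genes that go with them in the same cells were selected along. The calls rest on the block: without it, 5 genes passed against the caudal epiblast class and 0 against the presomitic class, where 771 had an unadjusted p under 0.05 and DESeq2 with the block called 549.

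Few genes passed a joint test of both contrasts, although 8.34% of those tested stood above and 17.3% below both classes in both libraries. The joint test asked for both contrasts in 1 direction, with the larger of the p-values adjusted over all genes, and 8 genes were higher (0.0576%) and 4 lower (0.0288%), 0.0864% in either direction. The 8 higher ones were Fgf8, Fgf17, Cyp26a1, Cdx4, Stmn2, Mgst1, Grsf1 and Tmem114. With 13 globin-rich barcodes left out of the comparison classes, an alternative added after seeing the data, 4 of the 8 still passed (Fgf8, Cyp26a1, Cdx4 and Stmn2), and Fgf17, Mgst1, Grsf1 and Tmem114 had adjusted p-values of 0.0773, 0.0578, 0.0578 and 0.0773. The log2 differences of the 8 genes moved by at most 0.0242 in this alternative. With at least 3 UMIs per pair, 2 of the 8 passed the joint test, Fgf8 and Cdx4.

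Fgf8 encodes the FGF ligand that marks the growing tail end. It stood at 335 CPM in the double-positive barcodes of replicate 1 and 312 CPM in replicate 2. The caudal epiblast class had 134 and 141 CPM, and the presomitic class 165 and 141 CPM, so neither class reached the double-positive level in either library. The differences were 1.26 ± 0.07 and 1.10 ± 0.07 on the log2 scale (edgeR, adjusted p = 0.000179 for both together). Fgf8 was the only higher gene that still passed after thinning to 5000 UMIs, at 0.91 and 0.92. Fgf17, a related ligand, stood at 109 and 196 CPM, against 44.1 and 116 CPM in the caudal epiblast class and 59.5 and 107 CPM in the presomitic class. Its differences were 1.07 ± 0.12 and 0.91 ± 0.12 (edgeR, adjusted p = 0.0444).

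Cyp26a1, which degrades retinoic acid, stood at 165 and 318 CPM in the double-positive barcodes. It was at 63.8 and 92.5 CPM in the caudal epiblast class and at 106 and 178 CPM in the presomitic class. The 2 libraries differed in level, and the double-positive class was the highest within each. The differences were 1.58 ± 0.08 and 0.74 ± 0.08 (edgeR, adjusted p = 0.0151 for both together). With at least 3 UMIs per pair they were 1.37 and 0.51, and the joint test did not pass (edgeR, adjusted p = 0.173). After thinning to 5000 UMIs, 41.4% and 56.7% of the double-positive barcodes held a Cyp26a1 UMI. The caudal epiblast class held one in 18.7% and 21.9% of barcodes and the presomitic class in 24.2% and 36.1%. Endothelial barcodes of replicate 1 by the second gate held one in 28.0%, above both comparison classes of that library, and those of replicate 2 in 12.6%. Cdx4, a caudal homeobox transcription factor gene, stood at 411 and 509 CPM, against 274 and 347 CPM in the caudal epiblast class and 292 and 334 CPM in the presomitic class. Its differences were small and even, 0.59 ± 0.05 and 0.56 ± 0.05 (edgeR, adjusted p = 0.00199).

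T (Brachyury), the T-box factor of the primitive streak, was at 144 and 170 CPM in the double-positive barcodes. The caudal epiblast class had 37.7 and 34.0 CPM and the presomitic class 104 and 116 CPM. T was highest in the double-positive class of each library and passed each contrast alone, at 2.11 ± 0.09 and 0.51 ± 0.08 (edgeR, adjusted p = 1.93e-06 and 0.00845). The joint test gave an adjusted p of 0.163. Without Scrublet-marked barcodes the same edgeR joint test gave 0.00475, with differences of 2.40 and 0.74. With at least 3 UMIs per pair the differences were 1.97 and 0.37, and the one from the presomitic class did not pass (edgeR, adjusted p = 0.132). It did not pass after thinning to 5000 UMIs either, at 0.46 (edgeR, adjusted p = 0.66).

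Of the other higher genes, Stmn2, a microtubule regulator gene, stood at 122 and 90.6 CPM, against 76.7 and 53.3 CPM in the caudal epiblast class and 66.7 and 54.5 CPM in the presomitic class. Mgst1, a microsomal glutathione transferase gene, stood at 83.6 and 76.4 CPM, against 40.5 and 39.6 CPM and 58.5 and 47.0 CPM. Grsf1, an RNA-binding protein gene, stood at 577 and 220 CPM, against 412 and 165 CPM and 327 and 144 CPM. All 3 were highest in the double-positive class of each library. Tmem114, a membrane protein gene under the level set for naming and named after its values were seen, was at 9.52 and 8.24 CPM and at most 3.45 CPM elsewhere.

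**Figure D2:**
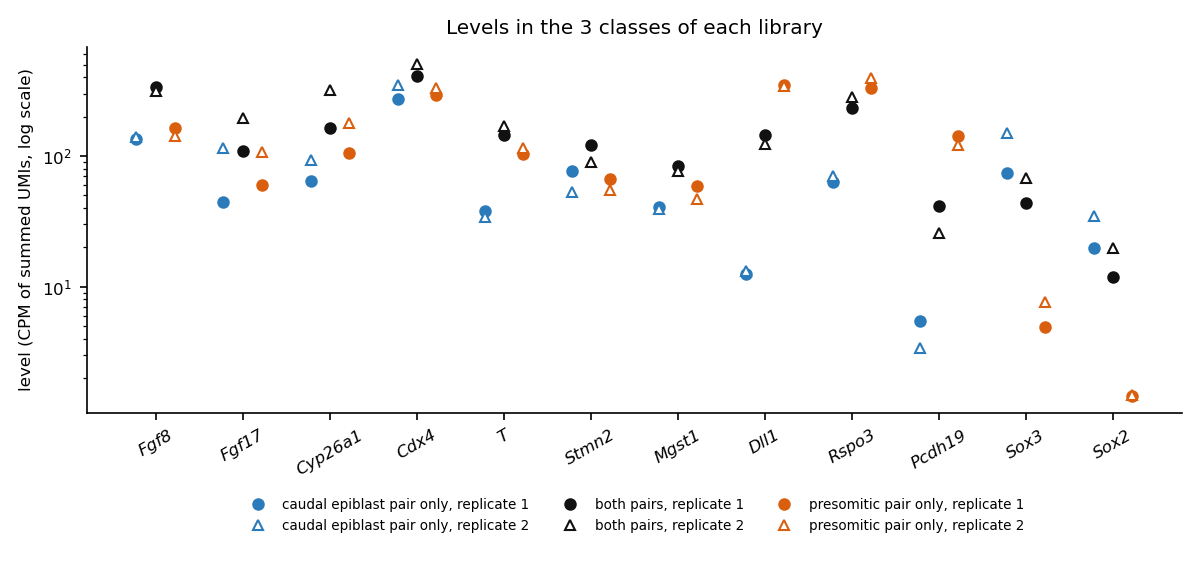
Level of 12 genes in CPM of summed UMIs (log scale), by class (colour) and library (filled circles, replicate 1; open triangles, replicate 2). Fgf8, Fgf17, Cyp26a1, Cdx4, T, Stmn2 and Mgst1 were highest in the double-positive class of each library; Dll1, Rspo3, Pcdh19, Sox3 and Sox2 lay between the other classes.

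The promoters of Cyp26a1, Cdx4 and T, which stood above both classes, and of the gate gene Msgn1 are shown because Wnt, Cdx, retinoic acid receptor and T-box proteins are the factors known to act in these cells. Each is the 250 bases before the RefSeq start (GRCm38.p6), written 5′ to 3′ on the strand of the gene, with capitals for matches on either strand to CTTTGA or CTTTGT (TCF/LEF), TTTATG or TTTATT (Cdx), AGGTCA or AGTTCA (retinoic acid receptor half-site) and AGGTGT (T-box half-site). The positions are chr19:37697558-37697807 (plus strand), chrX:103321148-103321397 (plus), chr17:8434173-8434422 (plus) and chr12:11208949-11209198 (minus), in that order.
Cyp26a1: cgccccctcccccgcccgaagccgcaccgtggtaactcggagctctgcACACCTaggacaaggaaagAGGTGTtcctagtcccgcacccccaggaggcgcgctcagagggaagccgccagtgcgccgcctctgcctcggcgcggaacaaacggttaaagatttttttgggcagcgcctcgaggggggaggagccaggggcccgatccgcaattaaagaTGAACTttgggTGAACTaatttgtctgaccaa
Cdx4: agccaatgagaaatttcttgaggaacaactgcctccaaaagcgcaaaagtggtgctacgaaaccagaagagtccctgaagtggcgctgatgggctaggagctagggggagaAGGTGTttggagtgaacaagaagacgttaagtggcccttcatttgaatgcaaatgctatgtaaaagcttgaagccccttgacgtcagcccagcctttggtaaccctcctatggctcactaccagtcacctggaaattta
T: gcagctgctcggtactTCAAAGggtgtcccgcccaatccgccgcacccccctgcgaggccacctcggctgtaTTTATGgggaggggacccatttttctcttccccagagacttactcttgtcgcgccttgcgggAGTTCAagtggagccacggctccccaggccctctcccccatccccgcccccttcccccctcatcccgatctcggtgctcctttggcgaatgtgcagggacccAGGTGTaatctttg
Msgn1: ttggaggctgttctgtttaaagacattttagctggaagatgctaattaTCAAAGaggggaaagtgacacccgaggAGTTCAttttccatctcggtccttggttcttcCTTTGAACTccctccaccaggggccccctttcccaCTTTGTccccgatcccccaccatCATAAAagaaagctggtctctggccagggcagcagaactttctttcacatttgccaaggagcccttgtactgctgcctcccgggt

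Cyp26a1 held 2 matches to the T-box half-site and 2 to AGTTCA, the latter beginning 32 and 21 bases before the start. Cdx4 held 1 match, to AGGTGT. T held 1 match of each kind. Msgn1 held 6 matches, 3 of them to the TCF/LEF letters, and in 1 place CTTTGA and AGTTCA on the other strand overlap. The same search of the other presomitic gate gene, Tbx6 (chr7:126781233-126781482, plus strand, sequence not shown), found 0 matches, which says only that these letters are not in that window. Of all 32851 RefSeq promoter windows of this length, 27.6% hold the TCF/LEF letters, 25.5% the Cdx letters, 24.2% the retinoic acid receptor letters and 11.8% the T-box letters. A match is a description of these letters and shows no binding.

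Levels were followed across the threshold, with no test, in barcodes holding at least 2 UMIs of the epiblast pair. In replicate 1, Fgf8 stood at 134 CPM with no presomitic UMI, 284 CPM with 1, just outside the gate, and 406 CPM with 2, just inside it. It was 363 CPM with 3 to 4 and 282 CPM with 5 or more. Replicate 2 ran alike, at 141, 286, 418, 309 and 247 CPM, so the highest value of each library lay at 2 presomitic UMIs. T was at 86.3 CPM just outside and 146 CPM just inside in replicate 1, and at 99.5 and 162 CPM in replicate 2. Dll1, a Notch ligand gene of presomitic mesoderm, was at 26.3 CPM just outside and 70.2 CPM just inside in replicate 1, and 225 CPM at 5 or more. In replicate 2 it was at 30.6, 41.8 and 187 CPM. Sox3, a neural progenitor factor gene, ran the other way, from 74.0 CPM with no presomitic UMI to 37.2 CPM with 5 or more in replicate 1, and from 149 to 67.0 CPM in replicate 2. Scrublet marked 15.9% of barcodes just outside the gate, 21.3% just inside and 40.5% at 5 or more in replicate 1, and 8.82%, 17.1% and 19.6% in replicate 2. Without them, Fgf8 in replicate 1 was 454 CPM at 2 UMIs and 470 CPM at 3 to 4, so its highest value moved by 1 bin.

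**Figure D3:**
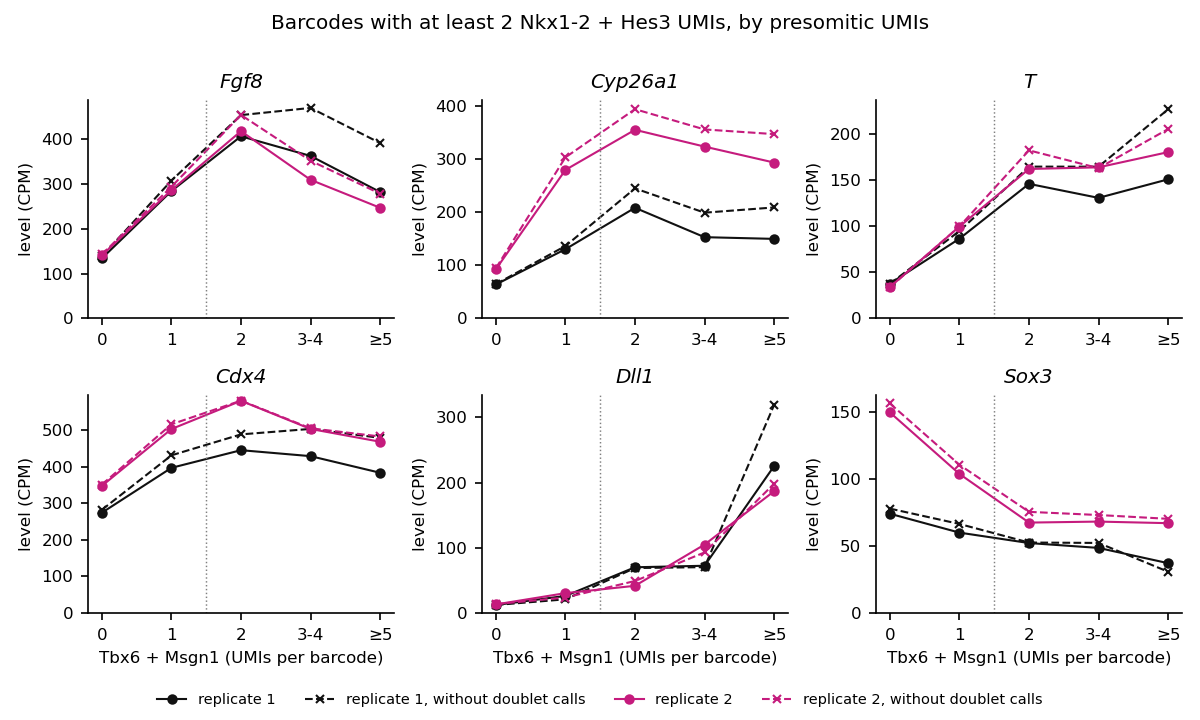
Level of 6 genes in CPM among barcodes with at least 2 Nkx1-2 and Hes3 UMIs, by their Tbx6 and Msgn1 UMIs, in replicate 1 (black) and replicate 2 (pink), with all barcodes (solid) and without Scrublet-marked ones (dashed). The dotted line is the threshold of the gate; Fgf8 was 406 and 418 CPM just inside it, against 284 and 286 CPM just outside.

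Presomitic genes were above the caudal epiblast class and below the presomitic class. Of 18 tested members of the presomitic list, 15 were higher than in the caudal epiblast class and 0 lower (median log2 difference 1.85, against -0.01 over all genes tested). Against the presomitic class 0 were higher and 12 lower (median -1.21, against -0.01). Over all genes tested, 1.42% were called higher and 0.914% lower than in the caudal epiblast class. Against the presomitic class these shares were 3.02% and 2.35%, and the list counts below stand beside the same shares. In both libraries 16 of the 18 lay between the classes, as 18.9% of all tested genes did, while 55.4% of all tested genes had no common order in the 2 libraries. The counts of 0 in this list stayed 0 at an unadjusted p under 0.05 and with DESeq2. Without Scrublet-marked barcodes, 12 members were called higher than in the caudal epiblast class and 13 lower than in the presomitic class. Dll1 stood at 145 and 124 CPM, against 12.4 and 13.3 CPM in the caudal epiblast class and 351 and 343 CPM in the presomitic class. Its differences were 3.44 ± 0.08 and -1.33 ± 0.07 (edgeR, adjusted p = 4.39e-08 and 2.00e-05). Pcdh19, a protocadherin gene, stood at 41.2 and 25.8 CPM, between 5.49 and 3.37 CPM and 143 and 122 CPM. Mesp2, which acts where a segment forms, was at 10.3 and 10.1 CPM, between 1.11 and 0.0925 CPM and 31.7 and 35.6 CPM. Rspo3, a secreted enhancer of Wnt signalling, reached 234 and 285 CPM, closer to the presomitic 332 and 392 CPM than to the caudal epiblast 63.5 and 70.6 CPM. Foxc1 and Foxc2, forkhead genes of paraxial mesoderm, fell short of the presomitic class by -1.69 ± 0.22 and -1.64 ± 0.09.

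Genes of the Notch pathway and segmentation clock, of which Dll1, Dll3, Notch1, Lfng, Hes7 and Hey1 also belong to the presomitic list, mostly lay in the same order. In both libraries 10 of 15 lay between the classes, as 18.9% of all tested genes did. Notch2, a receptor gene, stood below both classes at 14.6 and 23.2 CPM, and 3 genes had no common order. Dtx1 stood above both at 0.640 and 1.12 CPM, but on only 8 and 3 UMIs, and it passed neither contrast. Of the 15, 8 were higher than in the caudal epiblast class and 0 lower, and 0 were higher and 6 lower than in the presomitic class (medians 0.66 and -0.44). Hes7, the oscillating repressor of the clock, stood at 169 and 191 CPM, against 57.1 and 65.4 CPM in the caudal epiblast class. The presomitic class had 200 and 194 CPM, and that difference of -0.13 ± 0.06 did not pass (edgeR, adjusted p = 0.302). Lfng, a modifier of Notch receptors, stood at 23.9 and 39.3 CPM, between 13.1 and 13.5 CPM and 56.6 and 59.3 CPM. Nrarp, a feedback inhibitor of Notch, stood at 54.4 and 176 CPM, between 15.7 and 50.7 CPM and 107 and 294 CPM. Hes1, Jag1 and Notch3 passed neither contrast.

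**Figure D4:**
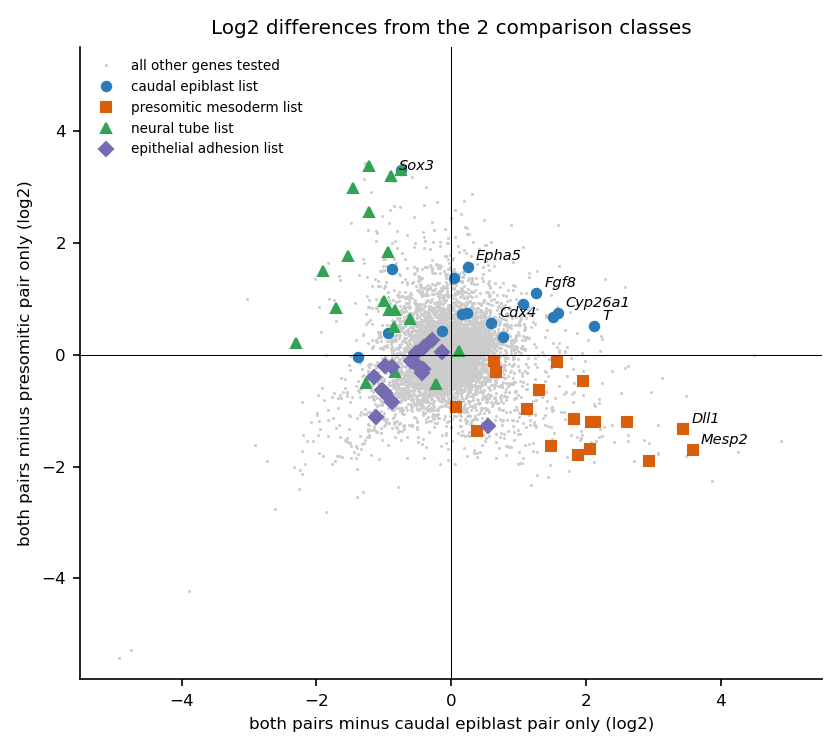
Log2 difference of the double-positive barcodes from the caudal epiblast class (horizontal) and from the presomitic class (vertical), 1 point per tested gene, with members of 4 lists coloured and the gate genes left out. Presomitic genes such as Dll1 (3.44, -1.33) lie at the lower right, Sox3 (-0.89, 3.19) at the upper left, and Fgf8 (1.26, 1.10) above 0 on both axes.

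Genes of the caudal epiblast list other than the gate pair were mostly above both classes. Of 16 tested, 8 were higher and 1 lower than in the caudal epiblast class (median 0.24), 13 were higher and 0 lower than in the presomitic class (median 0.73), and 10 stood above both classes in both libraries, as 8.34% of all tested genes did. Without Scrublet-marked barcodes, 9 were higher than in the caudal epiblast class and 14 than in the presomitic class. The 1 lower gene was Sox2. Of the list, 4 genes were among the 12 past the joint test. T and Evx1 of this list, and Wnt3a, were lower in the caudal epiblast class than in the presomitic class in both libraries. Evx1 stood at 60.5 and 41.7 CPM in the former and 84.4 and 55.9 CPM in the latter. Epha5, an ephrin receptor gene, stood at 223 and 234 CPM, against 197 and 196 CPM in the caudal epiblast class and 69.7 and 87.3 CPM in the presomitic class, a difference of 1.57 ± 0.08 from the latter. The difference of Epha5 from the caudal epiblast class, 0.24 ± 0.08, did not pass (edgeR, adjusted p = 0.198). Cdx2 stood at 381 and 386 CPM, against 338 and 355 CPM and 252 and 215 CPM. Its difference from the caudal epiblast class, 0.17 ± 0.06, did not pass (edgeR, adjusted p = 0.279). Wnt3a, a ligand needed for paraxial mesoderm, stood at 61.6 and 53.9 CPM, against 26.7 and 13.7 CPM in the caudal epiblast class and 36.4 and 34.8 CPM in the presomitic class. It passed the first contrast at 1.5 ± 0.19 and missed the second at 0.68 ± 0.19 (edgeR, adjusted p = 0.0761).

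Neural genes lay between the classes. Of 19 tested, 0 were higher and 7 lower than in the caudal epiblast class, and 9 were higher and 0 lower than in the presomitic class (medians -0.93 and 0.84). In both libraries 13 lay between the classes, as 18.9% of all tested genes did. Without Scrublet-marked barcodes, 8 were lower than in the caudal epiblast class, and 7 were higher and 1 lower than in the presomitic class. With the highest Scrublet scores left out up to the expected rate, an alternative added after seeing the data, 5 were higher and 1 lower than in the presomitic class. Sox2, a neural progenitor transcription factor gene, stood at 11.9 and 19.8 CPM, between 19.9 and 34.7 CPM in the caudal epiblast class and 1.45 and 1.48 CPM in the presomitic class. Sox3 stood at 44.0 and 67.4 CPM, between 74.0 and 149 CPM and 4.92 and 7.64 CPM. Its differences were -0.89 ± 0.10 and 3.19 ± 0.13 (edgeR, adjusted p = 0.00132 and 3.08e-06). Irx3, a homeobox gene of the neural plate, stood at 22.5 and 24.3 CPM, between 38.6 and 65.4 CPM and 11.6 and 14.2 CPM. Outside the lists, Map1b, Pdgfa, Nin and Fgfbp3 had the same order of classes in both libraries. Map1b did not pass against the caudal epiblast class (edgeR, adjusted p = 0.131). Lix1 was highest in the double-positive class, but its difference from the caudal epiblast class, 0.23 ± 0.11, did not pass (edgeR, adjusted p = 0.41).

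Levels per barcode overlapped between classes. The presomitic list without its gate genes had a median of 13.8 UMIs per 10000 in double-positive barcodes of replicate 1 and 12.9 in replicate 2. The caudal epiblast class had medians of 3.96 and 3.17, and the presomitic class 29.8 and 29.6. In replicate 1 the 90th percentile of caudal epiblast barcodes was 10.3, above the lower quartile of the double-positive barcodes at 8.71. The caudal epiblast list had medians of 23.3 and 26.3 in double-positive barcodes, against 15.9 and 15.2 and against 13.8 and 13.1.

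**Figure D5:**
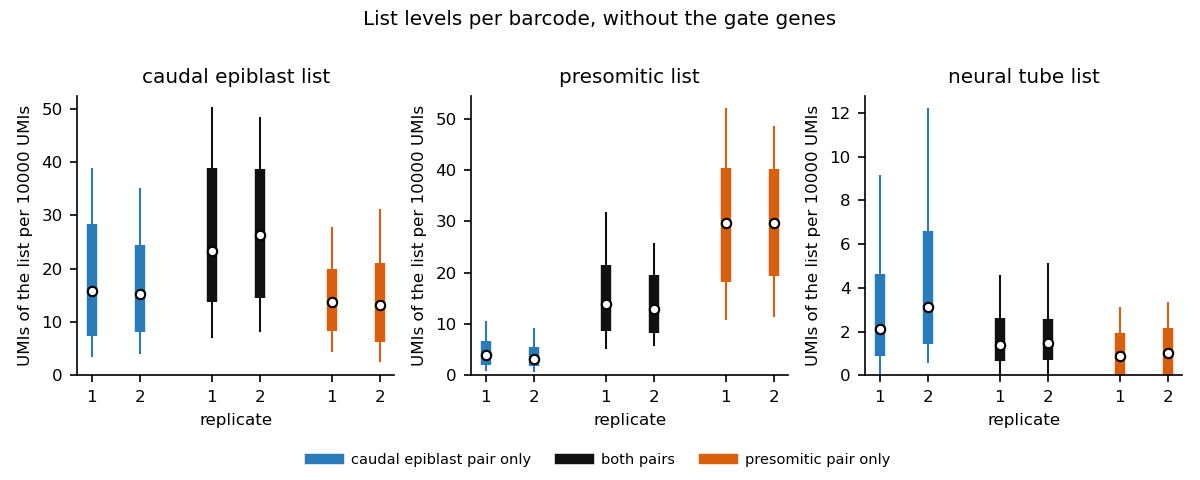
UMIs of 3 gene lists per 10000 UMIs of a barcode, without gate genes (and without Sox2 in the neural list), by class and replicate; circles are medians, thick bars the quartiles and thin lines the 10th to 90th percentiles over barcodes. Double-positive medians of the presomitic list (13.8 and 12.9) lie between those of the other classes, and those of the caudal epiblast list (23.3 and 26.3) above them.

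T and Sox2, the genes by which neuromesodermal progenitors are usually recognised, were counted per barcode, with no test made over cells. At 5000 UMIs, T was found in 46.0% of double-positive barcodes of replicate 1 and in 67 of 134 of replicate 2, against 15.0% and 13.2% of the caudal epiblast class and 32.0% and 39.4% of the presomitic class. Sox2 was found in 6.60% and 7.46% of double-positive barcodes, fewer than the 9.56% and 15.7% of the caudal epiblast class. The share with both was larger in double-positive barcodes than in the other classes, and of the pair T, not Sox2, was found in more of them than of the caudal epiblast class. Whether the 2 genes met in 1 barcode more often than their separate shares give was not tested. In replicate 1, 16 of 485 barcodes held both (3.30%, interval 1.90 to 5.30%) and 5 of 134 of replicate 2 (3.73%, 1.22 to 8.49%). The caudal epiblast class gave 1.31% and 1.71%, and the presomitic class 0.307% and 0.185%. Endothelial barcodes by the second gate, which should lack both genes, held both in 2 of 400 in replicate 1 (0.50%) and in 0 of 286 in replicate 2, where 3 counts would be 1.05%. In replicate 2 the interval of the double-positive share included the caudal epiblast share. Unthinned, the double-positive shares were 17.3% and 23.1%, against 8.59% and 10.4% in the caudal epiblast class. Scrublet-marked barcodes, 32.1% and 17.2% of the double-positive ones, were kept in all these shares.

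Among genes of the primitive streak, some were above the caudal epiblast class. Of 12 tested, 6 were higher and 0 lower, and 2 were higher and 2 lower than in the presomitic class (medians 0.60 and -0.28). T and Evx1 belong to this list and to the caudal epiblast list. Mixl1, a streak homeobox gene, stood at 16.6 and 17.2 CPM, against 1.97 and 0.462 CPM in the caudal epiblast class and 31.7 and 21.7 CPM in the presomitic class. Fgf4, a streak FGF ligand gene, stood at 25.4 and 4.12 CPM, against 1.02 and 0.139 CPM and 20.7 and 9.12 CPM, so its place relative to the presomitic class differed between libraries. Tdgf1 had no UMI in double-positive barcodes.

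The genes of the epithelial to mesenchymal change were mixed. Of 14 mesenchymal and basement membrane genes, 3 (Snai1, Fn1 and Tcf15) were higher than in the caudal epiblast class, 0 were lower, and 7 were lower than in the presomitic class (medians 0.08 and -0.38). Snai1, a repressor of epithelial genes, stood at 56.3 and 37.8 CPM, between 25.1 and 7.21 CPM and 131 and 111 CPM. Fn1, the gene of the matrix protein fibronectin, stood at 267 and 292 CPM, between 187 and 207 CPM and 553 and 701 CPM. Of 16 epithelial adhesion genes, 0 were higher and 4 lower than in the caudal epiblast class, 3 were lower than in the presomitic class, and 10 stood below both classes in both libraries, as 17.3% of all tested genes did (medians -0.56 and -0.24). Cldn7, a tight junction gene, stood at 23.1 and 5.62 CPM, below 40.2 and 17.8 CPM and 37.3 and 18.8 CPM. It passed each contrast and not the joint test (edgeR, adjusted p = 0.427). Of the epithelial adhesion genes, Cdh1 also belongs to the endoderm list and Grhl2 to the surface ectoderm list. Both of those lists summed to less than in the caudal epiblast class of each library, as given below. The part of other cell types in the lower epithelial levels was not tested.

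Signalling genes were read against all genes tested, of which 1.42% were higher and 0.914% lower than in the caudal epiblast class. Against the presomitic class these shares were 3.02% and 2.35%. Of 26 Wnt genes tested, 8 were higher and 0 lower than in the caudal epiblast class, and 7 were higher and 3 lower than in the presomitic class (medians 0.30 and 0.03). Lef1, a nuclear effector of the pathway, stood at 161 and 211 CPM, between 106 and 118 CPM and 276 and 357 CPM. Sp5, a Wnt target, stood at 196 and 118 CPM, against 116 and 52.0 CPM in the caudal epiblast class and 194 and 105 CPM in the presomitic class. Of 20 FGF genes, 6 were higher and 1 lower than in the caudal epiblast class, and 5 were higher and 0 lower than in the presomitic class (medians 0.37 and 0.01). Fgf3, another ligand gene, stood at 34.2 and 32.6 CPM, between 5.94 and 1.57 CPM and 52.7 and 50.5 CPM. The 1 lower gene was Fgfr2, an FGF receptor gene, at 19.0 and 10.5 CPM, between 44.4 and 29.0 CPM and 11.9 and 6.65 CPM. Dusp4, a feedback phosphatase, stood at 135 and 130 CPM, higher than the caudal epiblast class at 90.3 and 81.1 CPM. The presomitic class had 136 and 141 CPM of Dusp4, and that difference of -0.04 ± 0.07 did not pass (edgeR, adjusted p = 0.80). Of 13 retinoic acid genes, 2 were higher, Cyp26a1 among them, and 1 was lower (the receptor gene Rarb) than in the caudal epiblast class, and 3 were higher and 1 lower than in the presomitic class.

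Hox and cell cycle genes were read against the 2.33% and 5.36% of all tested genes called in the contrasts with the caudal epiblast and presomitic classes, and with lists this short a count of 0 is near those shares. Of 22 genes of Hox groups 1 to 8, 2 were higher than in the caudal epiblast class (Hoxb1 and Hoxd8), and 1 was higher and 3 lower than in the presomitic class. Of 12 genes of groups 9 to 13, 1 was higher than in the caudal epiblast class (Hoxd9) and 1 than in the presomitic class (Hoxa9). The summed level of this list was 293 CPM in double-positive barcodes of replicate 1 and 667 CPM in replicate 2, against 280 and 659 CPM in the caudal epiblast class, so libraries differed more than classes. None of 18 S phase genes, such as Mcm2 and Pcna, passed either contrast by edgeR or DESeq2, and 1 was lower than in the caudal epiblast class without Scrublet-marked barcodes (edgeR). At an unadjusted p under 0.05, 7 were lower than in the caudal epiblast class and 6 higher than in the presomitic class (edgeR, medians -0.09 and 0.10). None of 18 G2/M genes passed by either tool, with 4 at an unadjusted p under 0.05 in each contrast (medians 0.02 and 0.08), and 1 was lower than in the presomitic class without Scrublet-marked barcodes (edgeR). Of 19 BMP and TGF-beta genes, none passed against the caudal epiblast class by edgeR or DESeq2 (4 at an unadjusted p under 0.05, and 1 lower without Scrublet-marked barcodes), and 1 was higher and 3 lower than in the presomitic class.

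Markers of other cell types that the tissue could hold were summed per class, and their part in the results was not tested. None of the lists for endothelium, endoderm, extraembryonic endoderm, lateral plate, surface ectoderm and allantois summed to more in double-positive barcodes than in the caudal epiblast class of the same library. The endothelial list summed to 49.0 and 38.6 CPM, against 70.6 and 67.0 CPM in the caudal epiblast class and 58.1 and 50.8 CPM in the presomitic class. The endoderm list summed to 431 and 146 CPM, against 804 and 218 CPM and 457 and 170 CPM, and its called genes were the keratins Krt8 and Krt18, which also belong to the surface ectoderm list. The extraembryonic endoderm list summed to 109 and 11.6 CPM, against 286 and 17.1 CPM and 147 and 62.7 CPM. The surface ectoderm list summed to 434 and 174 CPM, against 790 and 241 CPM and 423 and 181 CPM. The lateral plate list summed to 288 and 146 CPM, against 315 and 161 CPM and 340 and 208 CPM. The allantois list summed to 106 and 49.4 CPM, against 136 and 76.7 CPM and 99.4 and 66.2 CPM. The somite list, which shares Meox1, Tcf15 and Foxc2 with the mesodermal lists, summed to 103 and 112 CPM, between 82.3 and 86.6 CPM and 217 and 287 CPM. The notochord list summed to 22.3 and 9.74 CPM, against 28.6 and 17.7 CPM and 46.6 and 22.9 CPM. The blood list summed to 15.6 and 48.3 CPM, against 5.83 and 1213 CPM and 13.4 and 1701 CPM. In replicate 1 the blood sum came mostly from Hba-a1 (6.96 CPM, against 2.32 CPM in the caudal epiblast class), Hba-a2 (6.16 against 1.15 CPM) and Alas2 (2.08 against 0.383 CPM). Each of these was lower than in the caudal epiblast class in replicate 2. The blood marker Gata1 had no UMI in double-positive barcodes. It was scarce elsewhere too, with 5 and 12 UMIs in the caudal epiblast class and 0 and 13 in the presomitic class. The somite markers Pax1 and Tbx22 had no UMI in double-positive barcodes either, in a list of 11 genes of which 9 were tested.

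The 4 genes below both classes each rested on 1 library. Hba-x, Hbb-bh1 and Hbb-y, the embryonic globin genes, together stood at 47.2 CPM in double-positive barcodes of replicate 2, against 1187 and 1667 CPM in its caudal epiblast and presomitic classes. In those classes, 7 and 6 barcodes with at least 100 globin UMIs held 95.5% and 96.6% of the globin UMIs, and without them the classes stood at 54.1 and 57.9 CPM. None of the 3 passed the joint test without those barcodes. Apoc2, an apolipoprotein gene, stood at 6.24 CPM in replicate 1, against 43.9 and 24.1 CPM, and at 0 CPM in double-positive barcodes of replicate 2, against 0 and 0.123 CPM.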

How the data were processed

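Single-cell RNA was measured in 2 libraries. The deposited values are counts of UMIs per gene and barcode, made by the authors with Cell Ranger 6.1.1 on mm10, per the submitters' processing notes. No annotation is named. The libraries held 30449 and 18245 barcodes, none under 500 UMIs, with 295866003 and 150964773 UMIs in all. The filter kept barcodes of 2000 or more UMIs, 1000 or more genes and 0.3 to 10% mitochondrial UMIs (11228 and 8322). Of these, 114 barcode sequences occurred in both libraries, and 5 double-positive barcodes matched a kept barcode of the other library. Doublets were called with Scrublet (Scanpy 1.11.5) and kept unless stated. The depth and doublet values stand beside the shares they touch.

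Counts were summed per class and library and tested with edgeR 4.0.16 (TMM, filterByExpr, quasi-likelihood F test, two-sided, library as a block), with adjusted p under 0.05 as the threshold. Classes are cells of the same libraries, so the library pairs them; deviations of classes of 1 library correlated at 0.613, 0.572 and 0.720. The code was tested on simulated data. Members, gene lists and tests were chosen with earlier results of these data known. Named were genes of 24 lists, the 6 highest and 6 lowest called changes per contrast with at least 50 CPM in the higher class and 1 direction in both libraries, and up to 8 genes past both tests in each direction with at least 20 CPM. Gm and Rik models, Y-linked genes and Xist were not named. Alternatives were DESeq2 1.42.0, no low-count filter, no block, no Scrublet-marked barcodes, 10000 to 25000 UMIs, at least 3 UMIs per pair, no lower mitochondrial limit and thinning to 5000 UMIs. Added after seeing the data were 4 more: leaving out the highest Scrublet scores up to the expected rate, leaving out marked barcodes within 10000 to 25000 UMIs, leaving out barcodes with at least 100 globin UMIs, and adjusting without the gate genes. The second endothelial gate was also chosen after seeing the data. Promoters came from RefSeq (GRCm38.p6).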

Additional observations from a re-analysis of the deposited data

Results flagged for a closer look

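The feature table holds a custom eGFP sequence, although the labels call the embryos wild type, and its signal was above the 3 counts that a count of 0 allows. Kept barcodes held 982 eGFP UMIs in replicate 1 and 447 in replicate 2, in 680 (6.06%) and 353 (4.24%) barcodes. In double-positive barcodes there were 102 UMIs in 45 of 486 barcodes (9.26%) in replicate 1 and 10 UMIs in 8 of 134 (5.97%) in replicate 2. That is 8.16 and 3.75 CPM, against 3.14 and 3.98 CPM in the caudal epiblast class and 6.80 and 5.73 CPM in the presomitic class. The sequence went into the fit with all other genes, and its values are given here as a description, with no test.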

How the results depend on the processing

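The calls depended on depth, gate and block. Against the caudal epiblast class, 324 genes were called, and 926 without the low-count filter, 5 with no replicate block, 197 with at least 3 UMIs per pair and 74 after thinning. Against the presomitic class, 745 became 1509, 0 (771 at an unadjusted p under 0.05), 481 and 47 in the same order. The 12 genes past both tests became 58, 0 (34 at an unadjusted p under 0.05), 5 and 2, and 4 without globin-rich barcodes. DESeq2 gave 10 higher and 1 lower in place of 8 and 4. The other alternatives moved each count by 1.5 times at most, the joint count reaching 18 without Scrublet doublets at 10000 to 25000 UMIs. In replicate 1 the double-positive share of 15.8% became 12.3% without Scrublet doublets, 13.8% at 10000 to 25000 UMIs, 10.9% with at least 3 UMIs per pair, 13.3% with no lower mitochondrial limit, 3.15% after thinning, 9.84% without the highest Scrublet scores and 12.4% without Scrublet doublets at 10000 to 25000 UMIs. In replicate 2 the share of 9.27% became 5.55% with at least 3 UMIs per pair, 1.83% after thinning and 6.23% without the highest Scrublet scores.

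Of 161 called changes of named genes, 147 were still called without Scrublet doublets, 145 at 10000 to 25000 UMIs and 4 without the block. Of 158 tested after thinning, which left 43 and 12 double-positive barcodes, 44 were still called, 98 were not and 16 turned sign, none of these past the threshold. Against the caudal epiblast class these were Apoc2 (0.13), Epcam (0.0079), Greb1 (-0.0226), Mesp2 (-1.48), Rarb (0.0432), Spry4 (-0.00932), Tcf15 (-0.60) and Tmem114 (-0.20). Against the presomitic class they were Apoc2 (1.17), Cldn4 (0.97), Etv2 (-0.83), Hoxa9 (-0.70), Hoxb2 (0.00862), Neurog2 (-0.16), Sfrp2 (-0.0159) and Wnt8a (-0.31). Sign also turned for Apoc2 against the caudal epiblast class (0.15) without Scrublet doublets at 10000 to 25000 UMIs, for Hbb-y against the presomitic class (0.11) without globin-rich barcodes, and for Pax3 against the presomitic class (-0.26) without the highest Scrublet scores. The cause was not tested. Leaving out a library left 1 library per class and no test, so its fold changes have no p. Of 159 and 157 changes with counts above the floor, none turned sign. Of these, 51 without replicate 1 and 26 without replicate 2 moved by more than the SD between the libraries. The changes had been called from these same 2 libraries, so their agreement in sign was largely set by that choice. List counts of 0 numbered 47, of which 1, neural genes lower than in the presomitic class, was above 0 with DESeq2 and 10 without Scrublet doublets (at most 3 genes).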
